A study of Homo sapiens with 4 samples.

Results

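The 10 genes described here encode the signalling chain by which tuft cells, rare chemosensory cells of epithelia, turn a taste-type stimulus into a rise of calcium. They were chosen by symbol: SUCNR1, GNAT3, GNB3, GNG13, PLCB2, PLCG2, ITPR2, ITPR3, LRMP and TRPM5. All 10 were found among the 35979 symbols of the tables, and 8 of the 10 had a mean normalized count of at least 20 over the 4 libraries, as did 14940 symbols in all. GNG13 and TRPM5 did not and are too low to read.

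The study sequenced poly(A) RNA from NCI-H1048, a cell line established from a human small cell lung cancer, after a guide RNA (gRNA) had directed gene editing. The control library carried a non-targeting gRNA and is labelled WT. A pair of libraries labelled COLCA2 knockout carried COLCA2 gRNA 1 or COLCA2 gRNA 2, called guide 1 and guide 2 here, and 1 library labelled POU2F3 knockout carried POU2F3 gRNA. POU2F3 is the transcription factor that defines the tuft lineage, and COLCA2 encodes a co-activator of it. No further treatment is given for any group, and whether the edited cells were clones or mixed populations is not given in the sources used here.

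In taste and tuft cells a surface receptor releases a G protein made of an alpha subunit (GNAT3, gustducin), a beta subunit (GNB3) and a gamma subunit (GNG13). The beta and gamma subunits activate the phospholipase PLCB2, which makes inositol trisphosphate. This messenger opens receptors on the endoplasmic reticulum (ITPR2, ITPR3), and the released calcium opens the cation channel TRPM5. SUCNR1 is the receptor for succinate, PLCG2 is a phospholipase switched on by tyrosine kinases, and LRMP, also named IRAG2, is a membrane protein of the endoplasmic reticulum that associates with inositol trisphosphate receptors.

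Each library held between 21587741 and 29632382 reads assigned to genes. The POU2F3 transcript stood at 14602 normalized counts in the control, 3677 in guide 1, 2351 in guide 2 and 1449 in the POU2F3 library, and the COLCA2 transcript at 5585, 3119, 3541 and 1393. A transcript can persist after its gene is cut, so these levels check the labels only in part. Of 14 tuft markers 9 passed the minimum, and the list summed to 53576 normalized counts in the control and to between 10697 and 16387 in the edited libraries. The tuft markers TRPM5 and HPGDS had at most 3 reads in every library. The list for the YAP1 type of small cell lung cancer had 7 symbols, with CCN1 and CCN2 also listed under their old names CYR61 and CTGF. Its 5 genes were all in the table and summed to 7319 in the control and to between 34656 and 42034 in the edited libraries. Of the 8 neuroendocrine markers 3 passed the minimum, and the list summed to 233 in the control and to between 123 and 140.0 in the edited libraries. INSM1 went from 118 to between 23.8 and 35.3, and SYP from 74.5 to between 48.2 and 60.1. NEUROD1 and DDC were instead above the control in both guides, on few counts. The 7 immune cell markers were listed because blood cells also express PLCG2 and LRMP. They summed to 102 in the control, 65.3 in guide 1, 75.3 in guide 2 and 89.8 in the POU2F3 library. Only 1 of them, LYZ, passed the minimum, with 72.6 in the control, and the T cell marker CD3E was at 0 in all 4 libraries. The tuft list contains LRMP, TRPM5 and the target POU2F3, and without these 3 its 11 genes summed to 32743 in the control and to between 8987 and 11898 in the edited libraries. SOX9 alone made up 17847.5 of that sum in the control and 7566 of the 8987 in the POU2F3 library. The sum of each marker list thus lay to 1 side of the control in every edited library, the neuroendocrine sum mainly through INSM1. The part of these lists in the results below was not tested.

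All edited libraries were set against the same control, so the comparisons share it. With 1 library in 2 of the 3 groups, a gene is called lower or higher by size alone, where it was at least 2-fold apart after adding 1 to each value and taking log2. Adding 1 shrinks the ratios of genes with few counts. For COLCA2 both guides had to pass, and the SD between the guides is the only spread within a group. Percentages of the control level carry 95% exact intervals, which cover counting error only and treat the recovered reads as counts, although they may be rounded estimates. In bulk RNA, fewer cells that express a gene and less RNA per cell cannot be told apart.

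LRMP, SUCNR1 and GNAT3 were lower in all 3 edited libraries. PLCG2 was called lower in the POU2F3 library and in neither guide. ITPR3, which had the highest normalized count of the 10 genes in each library, was at 72.4% to 81.0% of its control level. ITPR2 was above its control level in each edited library. GNB3 and PLCB2 were within 2-fold, but counting intervals of both span that threshold in some edited libraries.

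Over all 10 genes, 5 were called lower in the POU2F3 library, where 3.05% of the 14940 genes were, and 4 in both guides, where 2.02% were. The same 4 were lower in all 3 edited libraries, against 1.5% of all genes. Each of these counts includes GNG13, which rests on at most 7 reads. None of the 10 was called higher in the POU2F3 library (6.73% of all genes), in both guides (5.79%) or in all 3 (4.89%). The 10 genes had a median log2 ratio to the control of -0.93 in the POU2F3 library and -0.70 for the mean of the guides. The -0.93 is the midpoint of PLCG2 and TRPM5, and TRPM5 is too low to read. Over the 8 readable genes the medians were -0.88 and -0.70, beside -0.0037 and -0.0086 over the 14940 genes, which passed the same minimum.

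**Figure D1:**
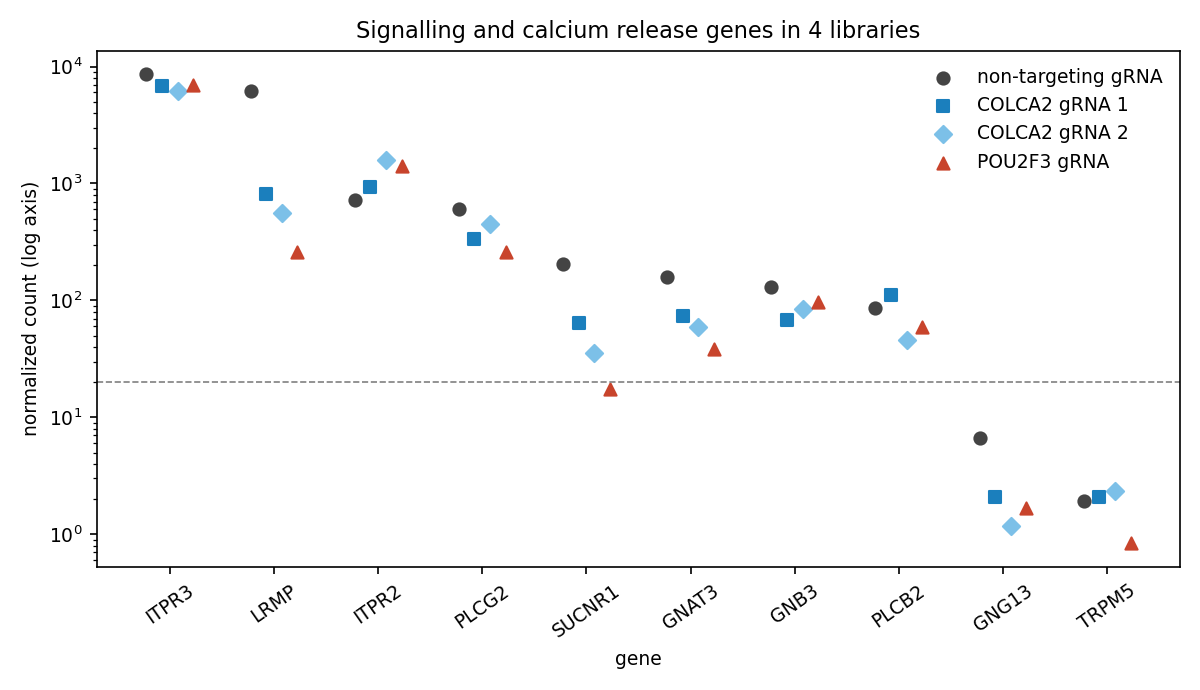
Normalized counts (log axis) of the 10 genes in the 4 libraries, 1 point per library; the dashed line marks the minimum mean of 20. LRMP spans the widest range, from 6229 in the control to 260.2 in the POU2F3 library, ITPR3 stays between 6224 and 8595, and GNG13 and TRPM5 lie below the line.

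SUCNR1, the surface receptor of the set, is annotated as ENSG00000198829 on chromosome 3, 151873643 to 151884619, plus strand (GRCh38, as all positions here). Its normalized counts were 206 for the control, 64.3 for guide 1, 35.3 for guide 2 and 17.6 for the POU2F3 library, the last from 21 reads. The edited libraries were all below the control and the POU2F3 library was the lowest. Relative to the control, SUCNR1 was at 31.2% (95% exact interval 23.1% to 41.5%), 17.1% (11.3% to 25.1%) and 8.55% (5.18% to 13.4%). The log2 ratio was -2.09 ± 0.60 (SD, n = 2) over the guides and -3.48 in the POU2F3 library.

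GNAT3, the gustducin alpha subunit (ENSG00000214415, chromosome 7, 80458671 to 80512020, minus strand), showed the same order at a smaller size. Control, guide 1, guide 2 and POU2F3 library held 159, 73.6, 58.8 and 38.6 normalized counts of GNAT3. Its log2 ratio was -1.26 ± 0.23 (SD, n = 2) over the guides and -2.01 in the POU2F3 library. Counting intervals were 34.7% to 61.7% of the control for guide 1 and 26.5% to 51.2% for guide 2, so both span the 2-fold threshold. In the POU2F3 library the interval was 17.2% to 33.9%.

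GNB3, the beta subunit (ENSG00000111664, chromosome 12, 6839954 to 6847393, plus strand), had values within 2-fold of the control throughout. It had 131 normalized counts in the control, 68.4 in guide 1, 84.7 in guide 2 and 97.4 in the POU2F3 library. All 3 edited libraries were below the control, and the POU2F3 library was the closest to it. GNB3 was at 52.3% (38.4% to 70.7%) of the control in guide 1 and 64.7% (48.0% to 86.7%) in guide 2. Both intervals span the 2-fold threshold. In the POU2F3 library it was at 74.4% (57.6% to 96.0%). The log2 ratio of GNB3 was -0.77 ± 0.21 (SD, n = 2) over the guides and -0.42 in the POU2F3 library. GNB3 shares 549 of its 3437 exonic bp with CDCA3 on the opposite strand. Strand use in the counting is not given in the sources used here, so reads of such pairs cannot be told apart.

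GNG13, the gamma subunit (ENSG00000127588, chromosome 16, 798041 to 800733, minus strand), had 7 reads in the control, 2 in guide 1, 1 in guide 2 and 2 in the POU2F3 library. The POU2F3 library stood at 25.1% of the control with an interval of 2.55% to 132%, and the intervals of the guides also included equality. A difference in GNG13 was therefore not detectable at this depth. Its exons share 193 of 984 bp with CHTF18 on the opposite strand.

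LRMP (ENSG00000118308, chromosome 12, 25004342 to 25108334, plus strand) differed most from the control among the 8 readable genes in every edited library. The control held 6229 normalized counts of LRMP, more than 95.9% of the 14940 genes had. Guide 1 held 809.7, guide 2 held 562 and the POU2F3 library held 260.2, above 54.9%, 44.9% and 30.0% of the genes. As shares of the control level these were 13.0% (12.1% to 14.0%), 9.02% (8.21% to 9.90%) and 4.18% (3.72% to 4.68%). These intervals do not overlap, so the edited libraries differed in LRMP by more than counting error. The log2 ratio was -3.20 ± 0.37 (SD, n = 2) over the guides and -4.58 in the POU2F3 library. Opposite-strand RNAs AC023510.1 and AC023510.2 share 135 and 33 of the 6610 exonic bp of LRMP.

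LRMP, SUCNR1 and GNAT3 were each lower at every step from the control over guide 1 and guide 2 to the POU2F3 library, which is also the order of the POU2F3 transcript. Not every step exceeded counting error: for GNAT3 guide 2 was at 79.9% (54.5% to 116%) of guide 1, and the POU2F3 library at 65.7% (43.0% to 100.01%) of guide 2, so both intervals include equality. The order was looked for after the values had been seen. It held for 3 of the 10 genes and for 7.3% of the 14940.

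**Figure D2:**
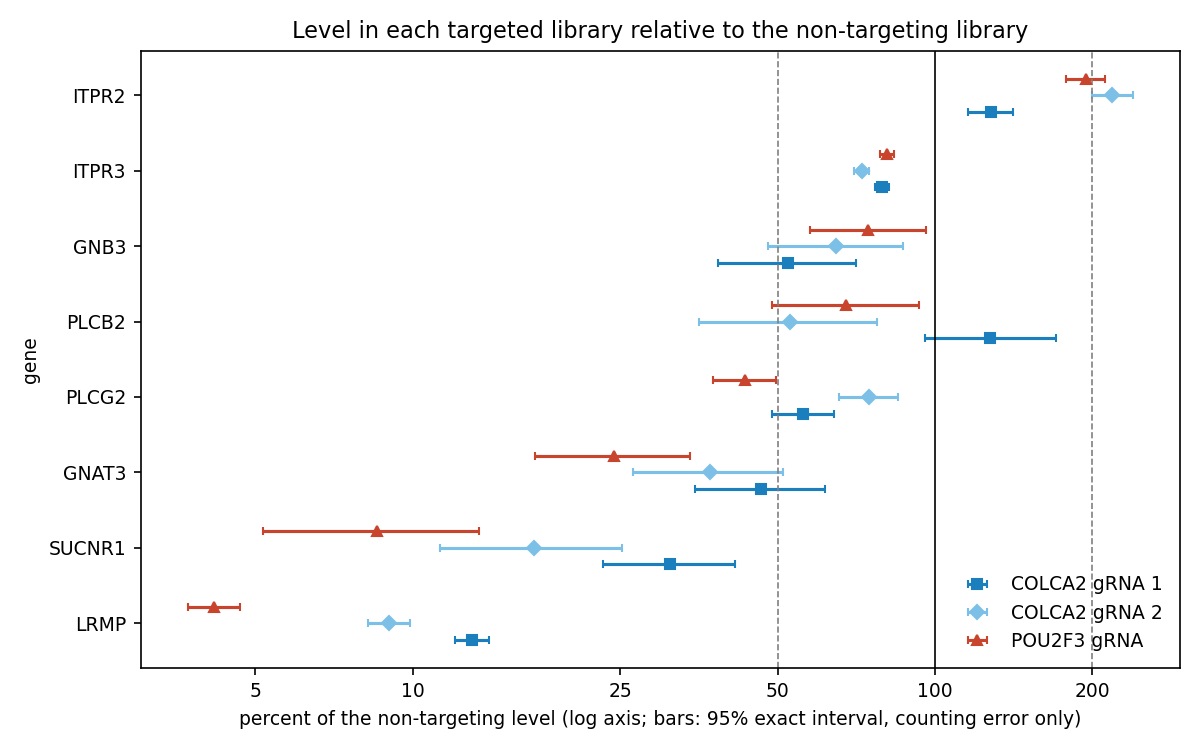
Level of the 8 readable genes in each edited library as a percentage of the control (non-targeting gRNA), on a horizontal log axis; bars are 95% exact intervals for counting error and dashed lines mark 2-fold. LRMP, SUCNR1 and GNAT3 have all 3 points left of the lower dashed line, from 4.18% to 46.4%, and all 3 points of ITPR2 lie right of 100%.

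Sequences upstream of the start are shown for the 3 genes that were lower together and for ITPR3, which stayed within 2-fold of the control in every library. POU2F3 belongs to a family of factors known to bind the octamer ATGCAAAT. The 250 bases before each RefSeq start (GRCh38.p14) were searched on both strands for ATGCAAAT, for its first 7 bases ATGCAAA, which every octamer contains, and for TATAAA. Capitals mark the matches. RefSeq windows were matched for 6 of the 10 genes and not for GNB3, ITPR2, PLCB2 and TRPM5.
SUCNR1 (chr3:151873393-151873642, plus strand): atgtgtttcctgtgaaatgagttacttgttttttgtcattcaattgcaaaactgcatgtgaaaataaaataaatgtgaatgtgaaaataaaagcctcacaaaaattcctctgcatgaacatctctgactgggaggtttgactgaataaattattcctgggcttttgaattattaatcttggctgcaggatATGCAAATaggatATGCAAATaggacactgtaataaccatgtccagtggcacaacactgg
LRMP (chr12:25052456-25052705, plus strand): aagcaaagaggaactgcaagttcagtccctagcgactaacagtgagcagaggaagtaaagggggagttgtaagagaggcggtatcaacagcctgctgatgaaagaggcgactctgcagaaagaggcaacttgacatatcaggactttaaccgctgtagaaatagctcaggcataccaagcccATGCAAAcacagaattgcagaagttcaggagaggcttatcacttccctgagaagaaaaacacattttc
GNAT3 (chr7:80512065-80512314, minus strand): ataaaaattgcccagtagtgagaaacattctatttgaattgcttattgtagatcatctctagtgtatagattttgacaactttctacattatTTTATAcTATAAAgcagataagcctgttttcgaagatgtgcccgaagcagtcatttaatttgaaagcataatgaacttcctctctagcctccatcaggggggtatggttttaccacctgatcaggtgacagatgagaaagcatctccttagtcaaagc
ITPR3 (chr6:33621072-33621321, plus strand): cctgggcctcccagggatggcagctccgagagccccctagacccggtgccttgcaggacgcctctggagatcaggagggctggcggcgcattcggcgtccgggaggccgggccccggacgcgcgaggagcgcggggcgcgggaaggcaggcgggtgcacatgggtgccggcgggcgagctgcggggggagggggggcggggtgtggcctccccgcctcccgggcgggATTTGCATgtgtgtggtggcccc

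SUCNR1 held 2 octamers in the same orientation, which begin 60 and 47 bases before the start. At least 1 octamer was present in 1.63% of the 35116 RefSeq windows of that length. LRMP held ATGCAAA 68 bases before the start, without the last base of the octamer, as 3.94% of all windows held those 7 bases. The RefSeq start of LRMP lies 48364 bp inside the gene as GENCODE draws it, so other starts were not searched. GNAT3 held TATAAA on each strand, 158 and 151 bases before the start, a motif of 10.7% of windows, and no octamer. ITPR3 held an octamer on the opposite strand, printed as ATTTGCAT, 23 bases before the start. That RefSeq start lies 957 bp inside the gene as GENCODE draws it, so the outer start of ITPR3 was not searched either. PLCG2 and GNG13 held none of these motifs in the window. A match is a run of letters, and binding was not measured here.

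PLCG2 (ENSG00000197943, chromosome 16, 81739097 to 81962693, plus strand) was below the control in every edited library. Its normalized counts were 604 for the control, 338 for guide 1, 450.4 for guide 2 and 261 for the POU2F3 library. Only the POU2F3 library passed 2-fold, at 43.3% of the control (37.6% to 49.6%), and the log2 ratio over the guides was -0.63 ± 0.29 (SD, n = 2). Guide 2 had 133% (115% to 155%) of the PLCG2 level of guide 1, so the guides differed by more than counting error. PLCG2 shares 386 and 318 of 13416 exonic bp with AC099524.1 and RN7SKP176 on its own strand.

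PLCB2 (ENSG00000137841, chromosome 15, 40278176 to 40307935, minus strand), the phospholipase of the taste chain, gave no common direction. It had 86.9 normalized counts in the control, 111 in guide 1, 45.9 in guide 2 and 58.8 in the POU2F3 library. Guide 2 had 41.3% (27.9% to 60.2%) of the PLCB2 level of guide 1, a larger gap than that of either guide from the control. The log2 ratio over the guides was -0.28 ± 0.89 (SD, n = 2) and is not read as a difference. PLCB2-AS1 on the opposite strand shares 357 of its 7350 exonic bp.

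ITPR3 (ENSG00000096433, chromosome 6, 33620365 to 33696574, plus strand) had 8595 normalized counts in the control, 6805 in guide 1, 6224 in guide 2 and 6959.8 in the POU2F3 library. The edited libraries lay close together below the control. Its log2 ratio was -0.40 ± 0.091 (SD, n = 2) over the guides and -0.30 in the POU2F3 library. UQCC2 on the opposite strand shares 1025 of the 9870 exonic bp of ITPR3.

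ITPR2 (ENSG00000123104, chromosome 12, 26336515 to 26833198, minus strand) had 727 normalized counts in the control, 929 in guide 1, 1586 in guide 2 and 1413 in the POU2F3 library. All 3 edited libraries were above the control. Relative to it ITPR2 was at 128% (116% to 141%) in guide 1, 218% (199.6% to 239%) in guide 2 and 194% (178% to 212%) in the POU2F3 library, so guide 2 alone passed 2-fold. Guide 2 had 171% (157% to 186%) of the level of guide 1. The log2 ratio over the guides, 0.74 ± 0.55 (SD, n = 2), was little larger than their spread. AC055720.2 on the same strand shares 126 of 12750 exonic bp with ITPR2.

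TRPM5 (ENSG00000070985, chromosome 11, 2404515 to 2423045, minus strand), the channel at the end of the chain, had 2 reads in the control, 2 in each guide and 1 in the POU2F3 library. These are all under 3 reads, and no fold is given. AC124057.1 on the opposite strand shares 404 of its 3962 exonic bp. TRPM4, the related calcium-activated channel, stood at 271 normalized counts in the control, 241 in guide 1, 296 in guide 2 and 185 in the POU2F3 library, all within 2-fold.

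Per kb of the principal GENCODE transcript, the 10 genes could be ordered by level. In the control LRMP had 2488 normalized counts per kb, ITPR3 871 and GNAT3 137. PLCG2, GNB3 and ITPR2 followed at 69.3, 68.0 and 63.7 per kb and, with 1 control library, cannot be ordered among themselves. SUCNR1 had 49.3 per kb, PLCB2 18.8, GNG13 6.79 and TRPM5 0.486. In the POU2F3 library ITPR3 led at 705 per kb, before ITPR2 at 124 and LRMP at 104.

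Among related genes, PLCB2, PLCG2 and GNB3 were minor members of their families. PLCB2 made up 1.76% of the phospholipase C beta level per kb in the control and between 1.17% and 2.73% in the edited libraries, whereas PLCB3 made up 79.0% in the control. PLCG2 made up 7.89% of the PLCG1 and PLCG2 level in the control, 6.50% in guide 1, 8.38% in guide 2 and 4.29% in the POU2F3 library. GNB3 made up between 0.309% and 0.615% of the G protein beta level over the 4 libraries.

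ITPR3 was by contrast the main inositol trisphosphate receptor. It made up 90.1% of the family level per kb in the control, 83.8% in guide 1, 76.7% in guide 2 and 80.4% in the POU2F3 library. ITPR2 made up 6.60%, 9.90%, 16.9% and 14.1% in the same order, and ITPR1 3.27%, 6.33%, 6.40% and 5.44%. The share of ITPR3 was thus lower, and those of ITPR1 and ITPR2 higher, in each edited library than in the control. The 3 receptors summed to 966 normalized counts per kb in the control and to 823, 822 and 877 in the edited libraries.

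**Figure D3:**
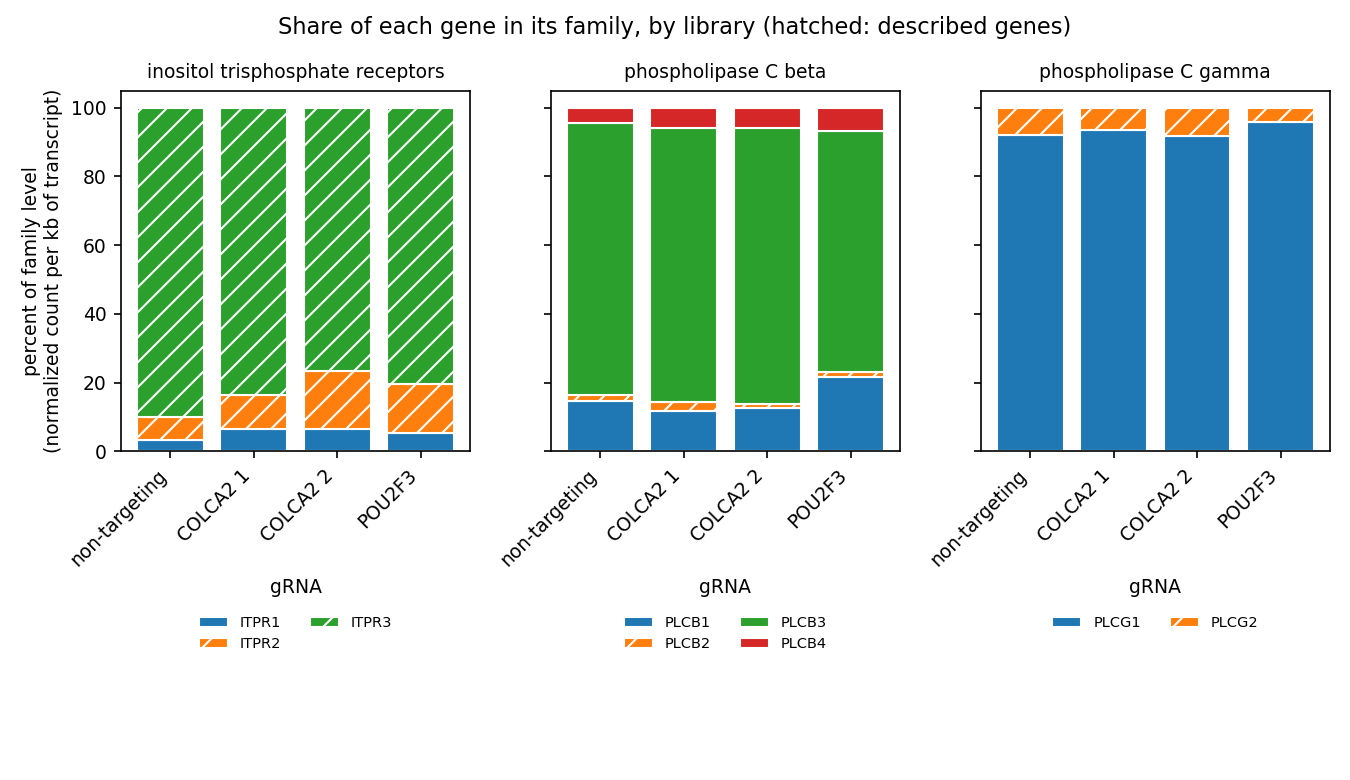
Share of each gene in its family in the 4 libraries, in percent of the summed normalized counts per kb of transcript; hatched bars are genes described here. ITPR3 holds between 76.7% and 90.1% of its family, whereas PLCB2 holds between 1.17% and 2.73% and PLCG2 between 4.29% and 8.38%.

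The POU2F3 library was also set directly against each guide, which leaves the control out. LRMP was at least 2-fold lower than in both guides, at 32.1% (28.1% to 36.7%) of the level of guide 1 and 46.3% (40.0% to 53.5%) of that of guide 2. It was 1 of the 10 to be so, against 0.924% of the 14940 genes. SUCNR1 was at 27.4% (15.9% to 45.6%) of guide 1 and 49.96% (27.2% to 90.2%) of guide 2. With 1 added to each value the latter is a log2 difference of -0.96, so SUCNR1 was not called. GNAT3 was at 52.5% (35.4% to 77.1%) of guide 1 and 65.7% (43.0% to 100.01%) of guide 2. PLCG2 was at 77.2% and 58.0% of guide 1 and guide 2, and ITPR3 at 102% and 112%. None of the 10 was at least 2-fold higher than in both guides, where 0.442% of all genes were.

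edgeR's quasi-likelihood test was run as an alternative on the reads of the 14940 genes, with Benjamini-Hochberg adjustment over them. The test took its spread from the COLCA2 guides, and its results are given for the 8 readable genes. For the POU2F3 library and the control, 1 library each, it must assume that they vary as the guides do, which these data cannot check, so its counts describe the setting and support no difference there. On that assumption it called 4 lower in the POU2F3 library (3.98% of all genes), LRMP, SUCNR1, PLCG2 and GNAT3. For COLCA2 it called 4 lower (7.51%), LRMP, SUCNR1, ITPR3 and GNAT3, against the same single control. ITPR3, within 2-fold at a log2 ratio of -0.40, had an adjusted p of 0.025 by edgeR, which applies no fold threshold. By edgeR 0 of the 8 were higher in either comparison (8.45% and 11.4% of all genes), while ITPR2 had log2 ratios of 0.97 and 0.79 by edgeR. Between the POU2F3 library and the guides edgeR called 0 lower (0.234% of all genes) and 0 higher (0.107%).

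Genes around the 10 in the pathway were taken from 9 lists with 125 genes, of which 79 passed the minimum. In the POU2F3 library 9 of the 79 were called lower (3.05% of all genes) and 4 higher (6.73%). In both guides 6 were lower (2.02%) and 1 higher (5.79%), and in all 3 edited libraries 5 were lower (1.5%) and 1 higher (4.89%). The 1 higher was BLNK each time, which passed the minimum only through the edited libraries. FFAR2, among the lower, passed it only through the control. Their median log2 ratio was -0.0037 for the POU2F3 library and -0.037 for the mean of the guides, beside -0.0037 and -0.0086 over all genes. Among the 10 readable other G protein alpha subunits, the 10 beta and gamma subunits and the 7 genes of inositol phosphate turnover, none was called lower or higher in the POU2F3 library or in both guides. Given the same shares over all genes, few calls among so few genes would be the background, so nothing particular to these lists is read from it. Pathway genes called in fewer than all 3 libraries, and uncalled ones, are named here after their values were seen.

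The list of taste regulators and release channels had 6 readable genes. RGS21, RGS13, RGS2 and PDE1C were called lower in the POU2F3 library, and CALHM2 and ENTPD2 were not called, with log2 ratios of -0.16 and 0.35. RGS21, a short protein that switches G protein signals off, had 910.0 normalized counts in the control, 178 in guide 1, 112 in guide 2 and 36.1 in the POU2F3 library. RGS13, of the same family, had 2518, 879, 719.7 and 128. Both were lowest in the POU2F3 library, and their log2 ratios over the guides were -2.68 ± 0.47 for RGS21 and -1.66 ± 0.20 for RGS13 (SD, n = 2).

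FFAR2, a receptor for short-chain fatty acids, was 1 of 7 readable genes on the list of other surface receptors and the one called lower. It had 74.5 normalized counts in the control, 12.4 and 8.23 in the guides and 14.3 in the POU2F3 library, from 78, 12, 7 and 17 reads. FFAR2 passed the minimum mean only through the control. CYSLTR1, a leukotriene receptor, stayed between 292 and 332 over the 4 libraries. Of 27 taste receptor genes 3 passed the minimum, 16 had at most 3 reads in every library and 8 of these were at 0 throughout. The readable ones, TAS2R4, TAS2R14 and TAS2R20, lay between 18.5 and 50.6. TAS2R20 was called lower in the POU2F3 library on 22 reads against 43, and reads of such near-identical receptors may be split between copies.

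On the phospholipase side, PLCH1 had 720.0 normalized counts in the control, 323 and 319.9 in the guides and 342 in the POU2F3 library. LCP2, an adaptor that brings PLCG enzymes to active kinases, had 904, 306, 179.9 and 70.5. PLCE1, a phospholipase activated by small GTPases, was called higher in the POU2F3 library, with 302 in the control, 723 in guide 1, 577 in guide 2 and 742 in the POU2F3 library. The kinase LYN was also called higher there, with 468, 881, 931 and 1115. BLNK, another such adaptor, was the gene called higher in all 3 edited libraries, at 10.5 in the control and 39.4, 47.0 and 78.1. These values come from 11, 38, 40 and 93 reads. BLNK passed the minimum mean only through the edited libraries, where it was high. TEC, a kinase of the same route, had 53.5 in the control, 54.9 and 57.6 in the guides and 15.1 in the POU2F3 library. For TEC the difference between the targets rests on 1 POU2F3 library, and its edgeR result is not given here.

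**Figure D4:**
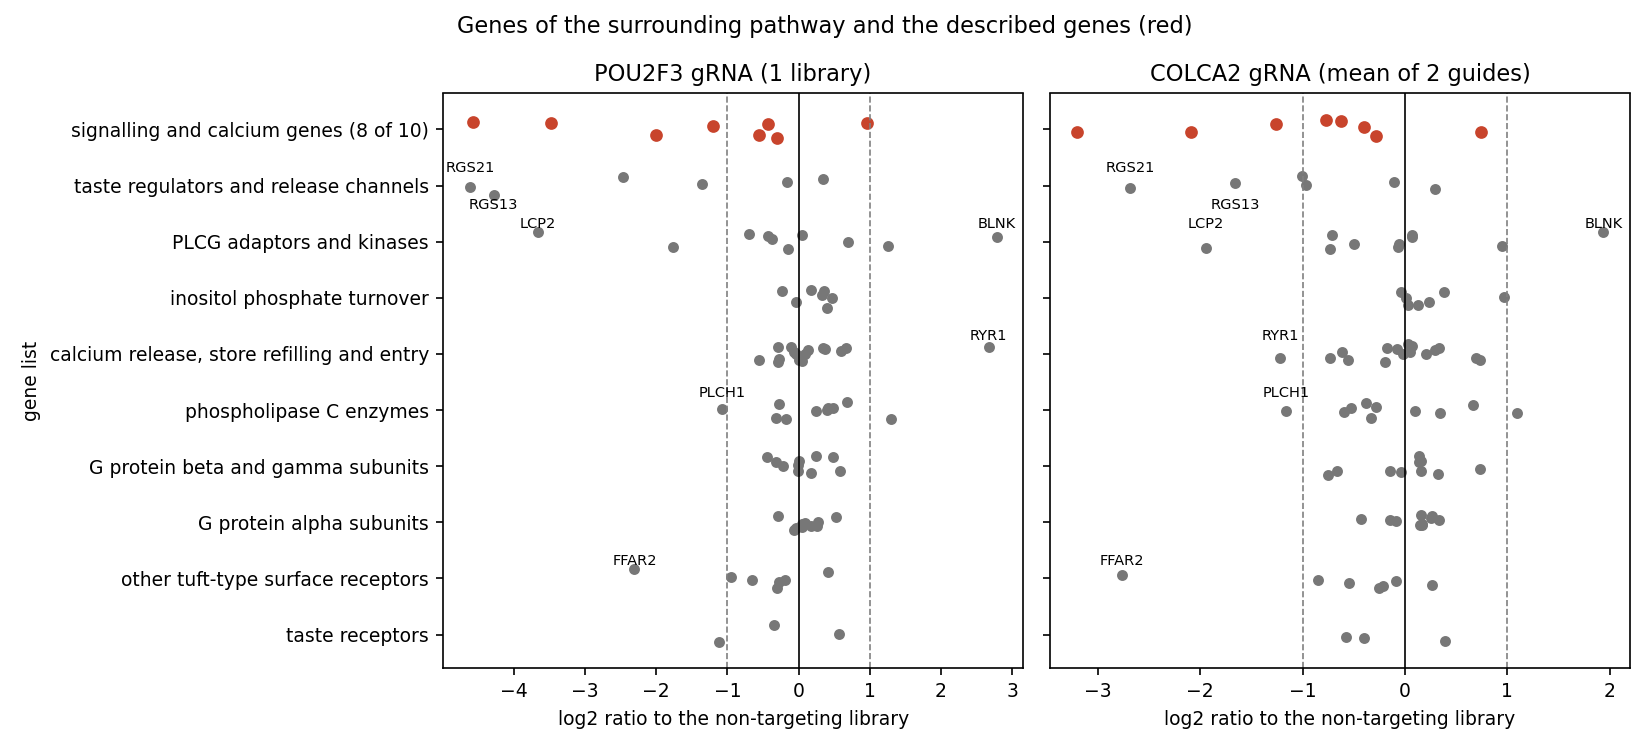
Log2 ratio to the control of the pathway genes past the minimum, by list (grey), with the 8 readable genes in red, in the POU2F3 library (left) and for the mean of the COLCA2 guides (right); dashed lines mark 2-fold. The grey points of the G protein subunits lie within the dashed lines, and RGS21 and RGS13 lie at -4.62 and -4.28 in the POU2F3 library, near LRMP at -4.58.

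For the 4 of the 10 with a mean of at least 100, the 3 most similar genes were taken by the largest difference over the 3 log2 ratios, among 12158 genes. LRMP was nearest to PSD2, HEPACAM2 and RGS21, with largest differences of 0.19, 0.57 and 0.60. PLCG2 was nearest to NBEAL2, ADRB1 and PCDH1 (0.071, 0.16 and 0.17), and ITPR2 to RASSF8, OTUD1 and SYNE1 (0.19, 0.23 and 0.23). ITPR3 was nearest to BCL2L15, CCDC134 and SOSTDC1 (0.023, 0.026 and 0.029). The 3 ratios share their control, so this likeness describes these libraries only.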

How the data were processed

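Poly(A) RNA-seq of 4 libraries was used. The authors deposited a linear signal, counts per gene divided by a library factor and headed as normalized counts. The submitters' processing notes name Salmon, DESeq2 and hg38 without roles or versions, and the annotation is not given in the sources used here. Every value (100%, tolerance 0.001) was a whole multiple of 1 step per library, which gave back whole reads and factors of 1.05, 0.965, 0.850 and 1.19 for the control, guide 1, guide 2 and the POU2F3 library. These reads may be rounded estimates of fragments shared between transcripts or related genes, for which counting intervals are too narrow.

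Rows of a symbol were summed. Ratios used a pseudocount of 1, calls a 2-fold threshold and shares over all genes a minimum mean of 20. The members and lists were chosen with earlier results of these data known. Named genes are the 10 genes, both targets, pathway genes called in the same direction in all 3 edited libraries and the 3 genes most like each of the 10 with a mean of at least 100, except where stated. Exact (Clopper-Pearson) intervals on the ratio of reads came from SciPy 1.17.1. The COLCA2 libraries carry different guides, so their spread includes any difference between guides and edits as well as technical error. Each guide was used in a single library, so these parts cannot be told apart. How the cells were cultured is not given in the sources used here.

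Alternatives were edgeR 4.0.16 (quasi-likelihood, 3 groups, 1 residual degree of freedom, adjusted p under 0.05), TMM, DESeq2 1.42.0 and equal-total scaling, other pseudocounts, minimums and thresholds, and leaving out a guide. Scripts were tested on simulated data. Positions and lengths are from GENCODE 29, and promoter windows from RefSeq (GRCh38.p14).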

Additional observations from a re-analysis of the deposited data

Results flagged for a closer look

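RYR1, a calcium release channel of the pathway lists, went opposite ways with the targets. Relative to the control its log2 ratio was 2.67 in the POU2F3 library, and -1.26 in guide 1 and -1.17 in guide 2. It rests on 318 reads in the POU2F3 library, 43 in the control, and 16 and 15 in the guides. The difference between the targets rests on 1 POU2F3 library, and the edgeR result for RYR1 is not given here. None of the 8 readable signalling genes had such opposite ratios with both guides.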

How the results depend on the processing

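No paired analysis was possible because only the COLCA2 guides carry different replicate numbers and the other groups hold 1 library each. A count is taken as moved beyond 1.5 times and a median beyond 0.082, the SD between the guides' medians. Scaling to equal totals, TMM factors, DESeq2 size factors and the row with the highest mean per symbol moved no count or median of the 10 genes, and the scalings shifted the all-gene median by 0.074 or less. A pseudocount of 0.5 gave a median of -1.03 in the POU2F3 library, and 10 gave -0.50 there and -0.57 over the guides. These medians include GNG13 and TRPM5, whose few reads make their ratios depend on the pseudocount. Keeping only genes with a mean of at least 100 left 2 lower in the POU2F3 library and 1 in both guides, with medians of -0.76 and -0.51. A 4-fold threshold left 3 lower in the POU2F3 library, 1 in both guides and 0 below both guides, and a 1.5-fold threshold put 4 below both guides. Shares over all genes were not computed at these other minimums and thresholds. These counts show only how the calls depend on the setting. With guide 1 left out the COLCA2 median was -0.76, and with guide 2 left out -0.88, with 4 lower each time. The count in the POU2F3 library below COLCA2 was 1 without guide 1 and 2 (LRMP and SUCNR1) without guide 2. edgeR gave 0 for that count, with a log2 ratio of -1.39 for LRMP. No count or median of the 10 genes reversed. Depth limits GNG13 and TRPM5.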
